A study of Sus scrofa with 48 samples.

Results

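The genes described here are the plasma membrane and related carriers of amino acids, sugars, monocarboxylates, fatty acids and organic anions that a custom porcine microarray measured in whole blood. Members were the spots whose gene name begins with SLC1A, SLC2A, SLC3A, SLC5A, SLC7A, SLC16A, SLC27A, SLC36A, SLC38A, SLC43A or SLCO followed by a digit. The rule found 131 of 60306 non-control spots, with 69 gene names. The deposited table of normalized values held 73 of these spots, for 47 genes, out of 37113 spots and 10946 gene names in all. The other 58 spots have no value in the table, and 22 genes had no spot in it. No spot carried an SLC36A name. SLC7A6OS is caught by the rule through its name alone: it is the opposite strand neighbour of SLC7A6 and is no carrier.

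Blood was collected at slaughter from 48 castrated male Large White pigs aged 132 days, after a morning meal. The pigs came from the lines of a divergent selection on residual feed intake (RFI), the feed eaten beyond what growth and maintenance call for. Low RFI pigs, written RFIneg in the labels, eat less than predicted, and high RFI pigs, written RFIpl, eat more. Within each line, 12 pigs ate a low fat, low fiber diet (LF) and 12 a high fat, high fiber diet (HF), in which straw and plant oils replaced part of the cereals. The diets carried the same protein and energy, and no gene was altered in any group. RNA came from unfractionated blood, so fewer cells of a type and less RNA per cell cannot be told apart. Between 40771 and 46727 spots per array were well above background, and the median intensity over local background ranged from 5.91 to 15.97. Each of the 6 slides carried 2 pigs of each group.

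Solute carriers move nutrients across cell membranes, either down a gradient or coupled to sodium, protons or a counter-transported molecule. Light chains of the SLC7 family such as SLC7A7 and SLC7A11 reach the membrane as a dimer with the heavy chain SLC3A2, and the lactate carriers SLC16A1 and SLC16A3 travel with basigin (BSG). Leukocytes take up glucose through facilitative SLC2 carriers, whereas red blood cells of grown pigs, unlike those of many mammals, take up little glucose, and activated lymphocytes raise the uptake of glutamine and large neutral amino acids.

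The 60-base probes of the 3 genes with a line difference are shown because the reading of each gene turns on how its probes behave. Capitals mark AATAAA, the hexamer of the polyadenylation signal, on the strand printed. SLCO2B1 was measured by 2 probes and SLC7A7 by 4, and no pair of these probes shared a stretch longer than 7 bases.
SLCO2B1 A_72_P121746: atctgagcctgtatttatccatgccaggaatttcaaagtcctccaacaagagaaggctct
SLCO2B1 O10918: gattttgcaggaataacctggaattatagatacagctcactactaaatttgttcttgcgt
SLC7A7 A_72_P077306: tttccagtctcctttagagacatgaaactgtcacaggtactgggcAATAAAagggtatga
SLC7A7 A_72_P548051: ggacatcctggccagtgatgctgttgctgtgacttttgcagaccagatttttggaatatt
SLC7A7 A_72_P585991: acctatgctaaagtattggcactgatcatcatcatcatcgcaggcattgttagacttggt
SLC7A7 A_72_P603513: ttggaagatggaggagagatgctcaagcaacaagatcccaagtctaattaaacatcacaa
SLC5A4 A_72_P077731: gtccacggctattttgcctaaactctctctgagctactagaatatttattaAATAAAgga
SLC5A4 O8049: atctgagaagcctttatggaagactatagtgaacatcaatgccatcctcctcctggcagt

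The hexamer AATAAA occurred in 12 of the 73 transporter probes (16.4%) and in 12% of all probes of the table. Its reverse complement TTTATT was present in 8.22% and 4.34%, and 2 transporter probes held both, 1 of them the first SLC5A4 probe, where the words do not overlap. A match describes the letters of a probe only. The array files pair all 4 SLC7A7 probes and the first SLC5A4 probe with a pig RefSeq transcript of that gene. Neither SLCO2B1 probe has a pig accession: O10918 is filed under a human transcript and A_72_P121746 under an assembled sequence cluster. Over all members, 51 of 131 spots had an accession found in the RefSeq gene table of assembly Sscrofa11.1, and in all 51 it led to the same symbol.

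Selection on feed efficiency raises the question of whether blood cells of the lines differ in nutrient carriers. At an adjusted P below 0.05, 3 of the 47 transporter genes differed between lines (6.38%), where 3.29% of all 10946 genes tested did. SLCO2B1 and SLC7A7 were higher in low RFI pigs and SLC5A4 was lower. The test was limma's moderated fit of line, diet and interaction terms, with Benjamini-Hochberg adjustment over all genes of the table. By the criterion of the study's methods, an unadjusted P below 0.01 with a fold above 1.1, SLC2A3 was added, giving 4 genes (background 6.19%). At the level of single probes, 5 of 73 passed the adjusted threshold (background 2.77%) and 8 the criterion of the methods (background 5.78%). The differences of the other 44 genes ran from -0.22 to 0.21 on the log2 scale, with 40 of them within 0.1 of zero. The median difference over the 47 genes was 0.03, and that over all genes was also 0.03. Within diets, 1 of 47 genes was called under LF (SLC5A4, background 0.32%) and 0 under HF (background 0.904%), and at the probe level 2 of 73 under LF (background 0.574%) and 0 under HF (background 0.773%).

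**Figure D1:**
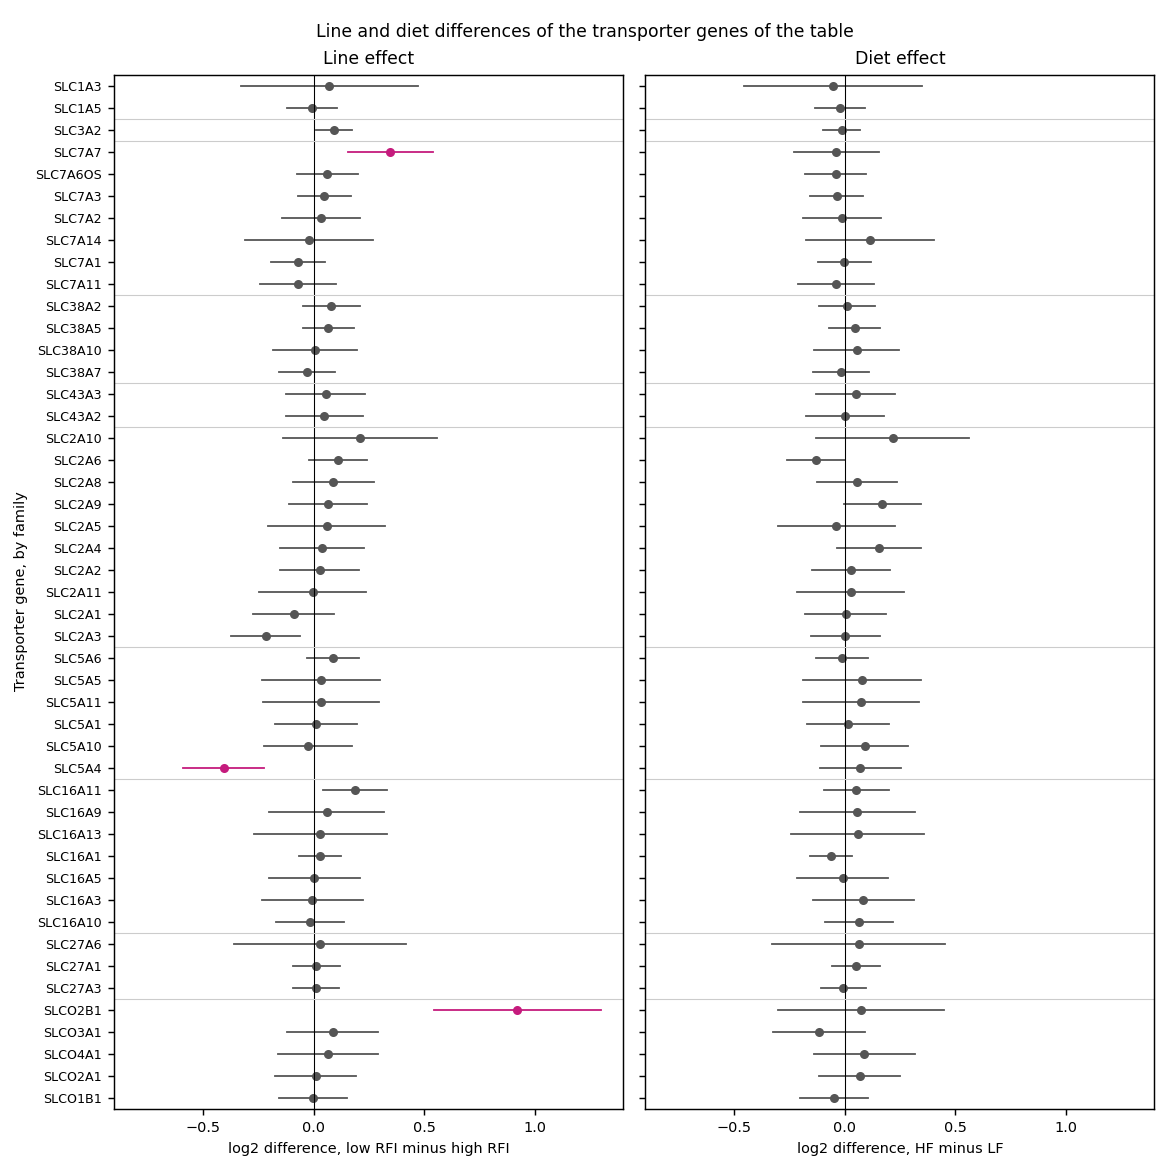
Line difference (left, low RFI minus high RFI) and diet difference (right, HF minus LF) in log2 units for the 47 transporter genes of the table, grouped by family, with 95% intervals over 48 pigs. Colored points passed an adjusted P of 0.05: SLCO2B1, SLC7A7 and SLC5A4 for line, and no gene for diet.

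SLCO2B1 encodes an organic anion carrier that takes up steroid conjugates, bile acids and many drugs. Its level, the mean of both probes as log2 intensity relative to the array median, had a lowest value of -0.46, a median of 0.73 and a highest of 1.32 in low RFI LF pigs. In low RFI HF pigs these were -0.44, 0.80 and 1.23. High RFI LF pigs spanned -1.87 to 1.09 with a median of -0.40, and high RFI HF pigs -1.65 to 0.78 with a median of -0.42. Low RFI pigs were thus gathered at the top of the range, and high RFI pigs spread over all of it: 22 of 24 low RFI pigs lay above the high RFI median, and 9 of 24 high RFI pigs lay below every low RFI pig. The line difference was 0.92 ± 0.19 (SE, n = 24 pigs per line), a 1.89-fold higher level in low RFI pigs (limma adjusted P = 0.0017, 95% interval 0.55 to 1.30). It was 0.97 in pigs fed LF and 0.87 in pigs fed HF, and low RFI pigs were higher on 6 of 6 slides, by 0.17 to 1.65.

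Both SLCO2B1 probes were higher in low RFI pigs, and ranges are given for the probe with the larger difference. The probe A_72_P121746 ranged from 0.17 to 1.87 (median 1.35) in the low RFI line and from -1.54 to 1.51 (median 0.09) in the high RFI line. All 24 low RFI pigs exceeded the high RFI median of that probe, and 13 high RFI pigs lay below the lowest low RFI pig. Its line difference was 1.03 ± 0.19 (SE, limma adjusted P = 6.0e-04), and that of O10918 was 0.81 ± 0.18 (adjusted P = 0.0044). Across the 48 pigs the probes followed each other with Pearson's r = 0.98 and Spearman's rho = 0.96 (permutation P = 1e-05 for each, the smallest that the permutations can give, and 2e-05 after adjustment over 2 probe pairs). The r was 0.97 after removing group means, 0.97 without the 2 pigs farthest from the median of O10918, and 0.92 to 0.99 within slides. The SD within groups was 0.67 for this gene, against a median of 0.31 over the transporter probes.

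SLC7A7 encodes the light chain y+LAT1, which with SLC3A2 exchanges cationic for neutral amino acids. Low RFI LF pigs had a lowest level of 0.51, a median of 0.88 and a highest of 1.51, and low RFI HF pigs 0.06, 0.79 and 1.18. In high RFI LF pigs the values were -0.15, 0.57 and 1.09, and in high RFI HF pigs -0.07, 0.46 and 1.14. The groups overlapped widely, with 20 of 24 low RFI pigs above the high RFI median. The line difference was 0.35 ± 0.10 (SE, n = 24 per line, 1.27-fold, limma adjusted P = 0.028, 95% interval 0.15 to 0.54). It was 0.45 under LF (adjusted P = 0.14) and 0.24 under HF (adjusted P = 0.58), and the interaction of line and diet had an unadjusted P of 0.28. Low RFI pigs were higher on 4 of 6 slides, with slide differences from -0.04 to 0.73. The adjusted P was 0.024 with slide as a block, and the call was lost when each gene was represented by its brightest probe (adjusted P = 0.055).

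The 4 SLC7A7 probes differed by 0.33, 0.34, 0.36 and 0.36 between lines, with correlations within groups of 0.83 to 0.93. A_72_P548051 (adjusted P = 0.015) and A_72_P585991 (adjusted P = 0.036) passed the threshold on their own, and A_72_P077306 (adjusted P = 0.057) and A_72_P603513 (adjusted P = 0.081) did not. A_72_P585991 kept its call in 5 of 11 alternatives.

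**Figure D2:**
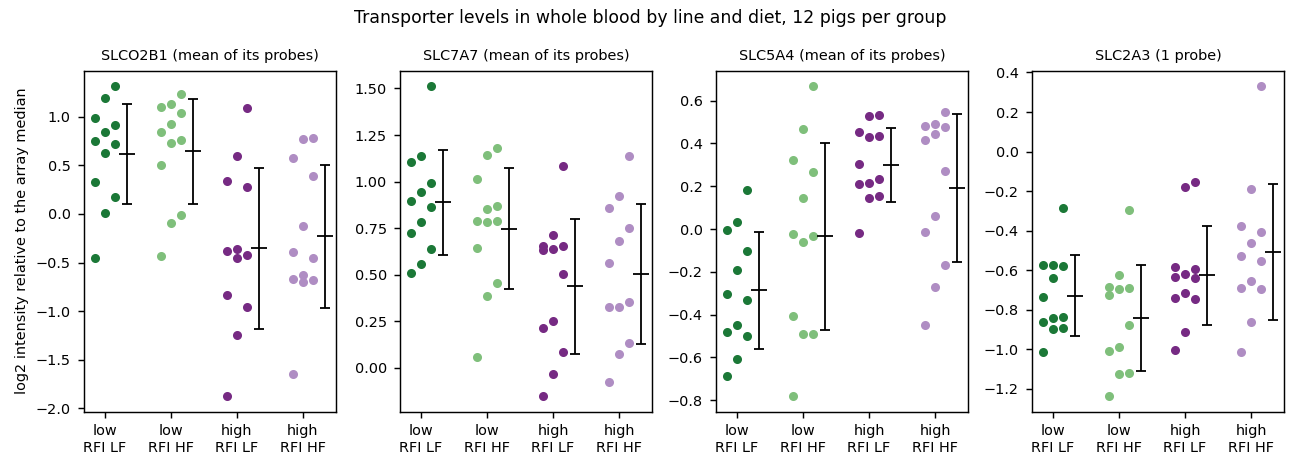
Log2 intensity relative to the array median in each pig for SLCO2B1, SLC7A7, SLC5A4 and SLC2A3, with 12 pigs per group and the group mean ± SD beside the points. High RFI pigs spread to the lowest SLCO2B1 levels, down to -1.87, and for SLC5A4 the low RFI LF pigs, from -0.69 to 0.18, overlap the high RFI LF pigs little and the HF groups widely.

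SLC5A4 belongs to the sodium and glucose cotransporter family, and the pig protein carries glucose with low affinity. Its level, the mean of both probes, spanned -0.69 to 0.18 in low RFI LF pigs (median -0.32) and -0.02 to 0.53 in high RFI LF pigs (median 0.27). Under HF it spanned -0.78 to 0.67 in low RFI pigs (median -0.03) and -0.45 to 0.55 in high RFI pigs (median 0.34). Of the 12 low RFI LF pigs, 9 lay below every high RFI LF pig, whereas the HF groups overlapped. The line difference was -0.41 ± 0.09 (SE, n = 24 per line, 1.33-fold lower in low RFI pigs, limma adjusted P = 0.0053, 95% interval -0.59 to -0.22). Low RFI pigs were lower on 6 of 6 slides, by 0.28 to 0.75 at the extremes.

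The call rested on 1 of the 2 SLC5A4 probes. For A_72_P077731, low RFI LF pigs spanned -1.37 to -0.45 (median -1.21) and high RFI LF pigs -0.52 to 0.38 (median -0.15), with 11 of 12 low RFI LF pigs below every high RFI LF pig. Under HF, low RFI pigs covered the full range from -1.69 to 0.53 and high RFI pigs -1.27 to 0.23. Its line difference was -0.62 ± 0.13 (SE, limma adjusted P = 0.0029), 1.54-fold lower in low RFI pigs. For O8049 the difference was -0.19 ± 0.09 (SE, adjusted P = 0.39), with low RFI pigs from -0.14 to 1.22 and high RFI pigs from 0.20 to 1.1. The 2 probes followed each other weakly (Pearson's r = 0.39, permutation P = 0.0062, and Spearman's rho = 0.42, permutation P = 0.0033, both unchanged by adjustment over 2 probe pairs). The r was 0.27 with group means removed and 0.30 without the 2 pigs farthest from the median of O8049. Within slides r ranged from 0.06 to 0.78. When each gene was represented by its brightest probe, which is O8049 here, the line difference of SLC5A4 was no longer called (adjusted P = 0.39).

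**Figure D3:**
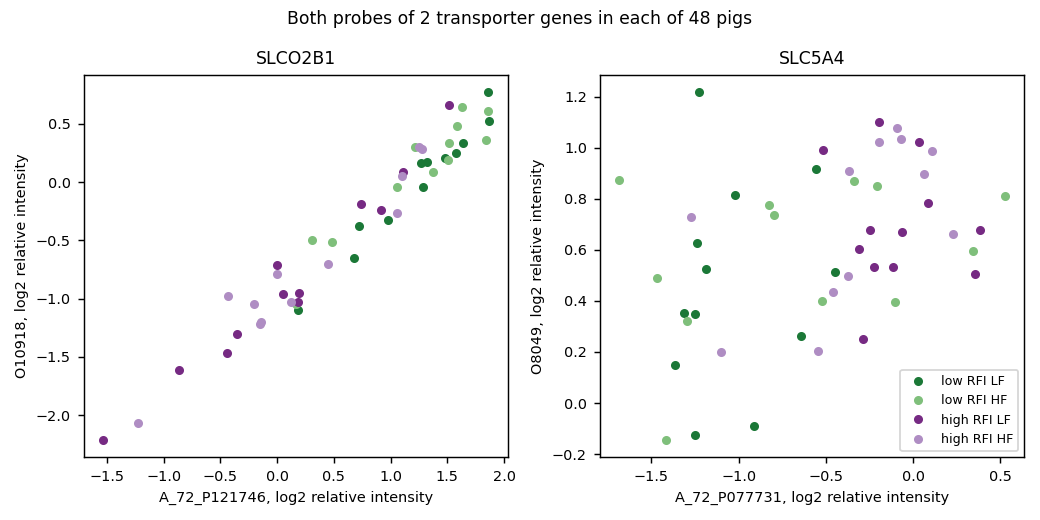
Log2 relative intensity of both probes of SLCO2B1 (left) and SLC5A4 (right), with 1 point per pig, colored by group. The SLCO2B1 probes lie along a line (r = 0.98), and the SLC5A4 probes scatter (r = 0.39), with low RFI LF pigs between -1.37 and -0.45 on the horizontal axis, where some HF pigs also lie.

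The line difference of A_72_P077731 was -0.94 under LF (limma adjusted P = 0.0054) and -0.31 under HF (adjusted P = 0.73). The interaction had an unadjusted P of 0.022 for this probe and 0.052 for the gene, with an estimate of 0.36 on the log2 scale (95% interval -0.004 to 0.73). The lowest adjusted interaction P over the transporter genes was 0.88, so the difference between diets did not pass the test.

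SLC2A3, the high-affinity glucose carrier of leukocytes and platelets, was measured by 1 probe. Its level ran from -1.24 to -0.28 in low RFI pigs (median -0.79) and from -1.01 to 0.33 in high RFI pigs (median -0.63), with 18 of 24 low RFI pigs below the high RFI median. The difference of -0.22 ± 0.08 (SE) had an unadjusted limma P of 0.0073 and an adjusted P of 0.13, and was -0.33 under HF and -0.10 under LF. SLC2A1, the glucose carrier of many proliferating cells, ran from -1.69 to -0.27 in low RFI pigs and from -1.55 to -0.25 in high RFI pigs, with a difference of -0.09 ± 0.09 (adjusted P = 0.83). That level rests on 1 probe, and the other SLC2A1 spot was not well above background on any array. None of the 10 SLC2 genes was called between lines, and 7 of them had a difference above zero. Of the 6 SLC5 genes, SLC5A4 alone was called, and the other 5, among them the intestinal glucose carrier SLC5A1, the iodide carrier SLC5A5 and the vitamin carrier SLC5A6, differed by -0.03 to 0.09.

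Among the other amino acid carriers, no line difference passed the adjusted threshold. SLC3A2, the heavy chain partner of SLC7A7, spanned -1.41 to -0.79 in low RFI pigs (median -1.14) and -1.43 to -0.96 in high RFI pigs (median -1.22). Its difference of 0.09 ± 0.04 (SE) had an unadjusted limma P of 0.030 and an adjusted P of 0.29. SLC1A5, a carrier of glutamine and other neutral amino acids, ranged from 1.59 to 2.45 in low RFI pigs and from 1.82 to 2.44 in high RFI pigs, with a difference of -0.01 ± 0.06. SLC38A2, the amino acid carrier induced by amino acid shortage, differed by 0.08 ± 0.06 (adjusted P = 0.73). The arginine and lysine carriers SLC7A1 and SLC7A2 differed by -0.07 and 0.03, and the cystine carrier SLC7A11 by -0.07. SLC7A1 was lower in low RFI pigs on 6 of 6 slides, by at most 0.13.

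The lactate carrier SLC16A1 was covered by 7 probes in the table, whose line differences ran from -0.02 to 0.09, and the gene level differed by 0.03 ± 0.05 (SE, limma adjusted P = 0.92). SLC16A3, the lactate exporter of glycolytic cells, ranged from -1.17 to 0.21 in low RFI pigs and from -1.10 to 0.16 in high RFI pigs, with a difference of -0.01 ± 0.11. SLC16A11, a monocarboxylate carrier of less certain substrate, differed by 0.19 ± 0.07 (unadjusted P = 0.013, adjusted P = 0.18). The fatty acid carriers SLC27A1, SLC27A3 and SLC27A6 differed by 0.01, 0.01 and 0.03. In the organic anion family, the other 4 SLCO genes of the table differed by -0.004 to 0.09.

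In lists of genes on the same pathways, 1 of 33 measured genes was called between lines (3.03%), near the 3.29% of all genes. Of 10 measured genes of fatty acid uptake and activation, 1 passed: ACSL4, an acyl-CoA synthetase that prefers arachidonate, fell by 0.31 in low RFI pigs (limma adjusted P = 0.037), and the list had a median of -0.09. None of 9 genes of glucose phosphorylation and GLUT control passed (median -0.05), with HK3, a hexokinase of leukocytes, at -0.26 (adjusted P = 0.14). None of 14 genes of the amino acid response and mTORC1 sensing passed (median 0.03), with the leucine sensor family member SESN1 at 0.22 (adjusted P = 0.066). The partner BSG differed by 0.08 (adjusted P = 0.66).

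Of 53 measured markers of blood cell types, 6 were called between lines (11.3%, against 3.29% of all genes), and 63.9% of all genes had a line difference above zero. The 11 measured erythroid markers all had a line difference above zero (median 0.12), and of them SLC4A1 (band 3) at 0.26 was called (adjusted P = 0.040). The 6 B cell markers reported all had a difference below zero (median -0.21), and MS4A1 at -0.36 and BLNK at -0.23 were called. Of 10 T cell markers, 9 were higher (median 0.14), with LCK called at 0.21. CD14 at -0.47 was the call among 7 monocyte markers, 5 of which were lower, and CXCR2 at -0.42 the call among 8 neutrophil markers, 6 of which were lower. No call was made among 7 NK and cytotoxic or 4 platelet markers. Mean marker levels overlapped between lines, with the erythroid list at 1.47 to 2.83 in low RFI and 1.16 to 2.69 in high RFI pigs, and the neutrophil list at 2.31 to 4.82 and 2.80 to 5.13. The other lists spanned, in low and high RFI pigs, 1.78 to 2.36 and 1.63 to 2.61 for T cells, 1.29 to 2.36 and 1.79 to 2.30 for B cells, 0.34 to 1.39 and 0.56 to 1.60 for monocytes, 0.57 to 1.71 and 0.38 to 2.24 for NK and cytotoxic cells, and 1.83 to 2.84 and 1.89 to 2.92 for platelets. The part of cell composition in the SLCO2B1, SLC7A7 and SLC5A4 differences was not tested.

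Diet changed no transporter past the test. With limma, 0 of 47 genes passed an adjusted P of 0.05 (background 0% of all genes), 0 met the criterion of the methods (background 0.228%), and 0 had an unadjusted P below 0.05 (background 1.94%). Of 73 probes, 1 had an unadjusted P below 0.05 (background 1.64%), the SLC16A1 probe A_72_P685122 with -0.15 (P = 0.015). The 5 genes with the lowest P were 4 sugar carriers and the lactate carrier. SLC2A9, a carrier of urate and sugars, had levels of -2.78 to -1.54 (median -2.29) under HF and -3.01 to -1.84 (median -2.57) under LF, and 20 of 24 HF pigs lay above the LF median. Its difference was 0.17 ± 0.09 (SE, unadjusted P = 0.056). SLC2A6 differed by -0.13 ± 0.06 (unadjusted P = 0.056), the insulin-responsive carrier SLC2A4 by 0.16 ± 0.09, SLC16A1 by -0.06 ± 0.05 and SLC2A10 by 0.22 ± 0.17, each with an adjusted P of 0.9995. The SLC2A6 probes disagreed: in high and low RFI pigs, A_72_P276754 differed by -0.36 and -0.15, and O7625 by 0.11 and -0.11. Over the alternatives, SLC2A9 ran from 0.083 to 0.37, SLC2A6 from -0.25 to -0.026, SLC2A4 from 0.060 to 0.35, SLC16A1 from -0.15 to 0.12 and SLC2A10 from 0.18 to 0.22. Between slides SLC2A10 was less even: HF minus LF was 1.18 on slide 1 and ran from -0.18 to 0.27 on the other slides. The diet differences of all 47 genes ran from -0.13 to 0.22, and 41 were within 0.1 of zero. Fatty acid carriers under the diet richer in fat differed by 0.05 (SLC27A1), -0.01 (SLC27A3) and 0.06 (SLC27A6).

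No interaction of line and diet passed the test either, with 0 of 47 genes at an adjusted P of 0.05 (background 0%), 0 at the criterion of the methods (background 0.219%) and 0 at an unadjusted P below 0.05 (background 2.33%). Of 73 probes, 2 had an unadjusted P below 0.05 (background 2.28%), the SLC5A4 probe above and the SLC3A2 probe A_72_P133051 with 0.29 (P = 0.036). After SLC5A4, the lowest unadjusted P values belonged to SLC2A3 (-0.23, P = 0.14), SLC38A10 (-0.27, P = 0.16), SLC7A14 (-0.36, P = 0.21) and SLC2A10 (-0.44, P = 0.21). The estimate is the line difference under HF minus that under LF. It was below zero for 33 of 47 transporters, with a median of -0.08. Over all genes the median was 0.002, and 50.5% of them had an estimate above zero. With normexp and quantile normalization, 28 of 47 transporters were below zero, with a median of -0.050 against 0.018. The transporters are not independent here. A set of 29 probes that moved together, described below, had a median of -0.16, and the other 44 probes one of 0.024.

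The partner proteins did not track their carriers past the test over the 48 pigs, in 4 pairs with adjustment over them. SLC3A2 and SLC7A7 had r = 0.07 and rho = 0.08 (permutation P = 0.62 and 0.61), and SLC3A2 and SLC7A11 had r = 0.18 and rho = 0.19 (P = 0.23 and 0.20). BSG and SLC16A1 had r = 0.31 and rho = 0.30 (permutation P = 0.032 and 0.039, adjusted P = 0.13 and 0.16). BSG and SLC16A3 had r = -0.20 and rho = -0.14 (P = 0.17 and 0.33). Without the 2 pigs farthest from the median of the partner protein, the 4 values of r were 0.03, 0.18, 0.29 and -0.21. Within slides the r of BSG and SLC16A1 ran from -0.51 to 0.56, and the other 3 pairs also changed sign between slides. The 2 SLC3A2 probes of the table disagreed with each other within groups (r = -0.18).

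Some of the transporter probes moved together from pig to pig within groups. Of 2578 pairs of probes of different transporter genes, 381 (14.8%) had an r above 0.5 after removing group means, against 10.6% of all probe pairs in the table. In 176 pairs (6.83%) r was under -0.5, and 19 of the 73 probes had no partner with r above 0.5. Neither of these shares was computed over all probes, so they cannot be called high or low. These probes share arrays and normalization, so the values are a description. A set of 29 probes of 26 genes had at least 10 such partners among the other transporters, with a median r of 0.69 among themselves. Among its members were probes of SLC5A1, SLC5A5, SLC5A11, SLC7A14, SLC2A2, SLCO1B1, SLC2A1 and SLC16A3, and the SLC5A4 probe O8049. Several of these genes were read by a single detected probe: the other spots of SLC5A1 were well above background on 0, 8, 1 and 1 of 48 arrays, that of SLC2A2 on 1 and that of SLC5A11 on 2. The set was formed from these values, and its share among all probes was not computed. The r of these 29 probes with the log2 intensity over background of the array was below zero for each, from -0.73 to -0.24 (median -0.52). For the other 44 probes it ran from -0.59 to 0.61, with a median of 0.19. The median log2 intensity over background of arrays averaged 3.41 to 3.48 in the 4 groups, and its part in the shared pattern was not tested.

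All 5 probes called between lines lay outside that set. Over all probes 2.77% were called, so few calls would fall among 29 probes at that share. Of its 29 probes, 26 had an interaction estimate below zero, against 17 of the other 44. Over all probes, 52.2% had an interaction estimate above zero. The 29 were picked for moving together, so 26 of 29 is not a count of independent probes. The lowest unadjusted limma interaction P among the 29 was 0.16. The SLCO2B1 and SLC7A7 probes had no partner with r above 0.5 among other transporter genes, and their r with array intensity ran from 0.06 to 0.27. The SLC5A4 probe A_72_P077731 had 2 such partners and an r of 0.38 with array intensity.

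**Figure D4:**
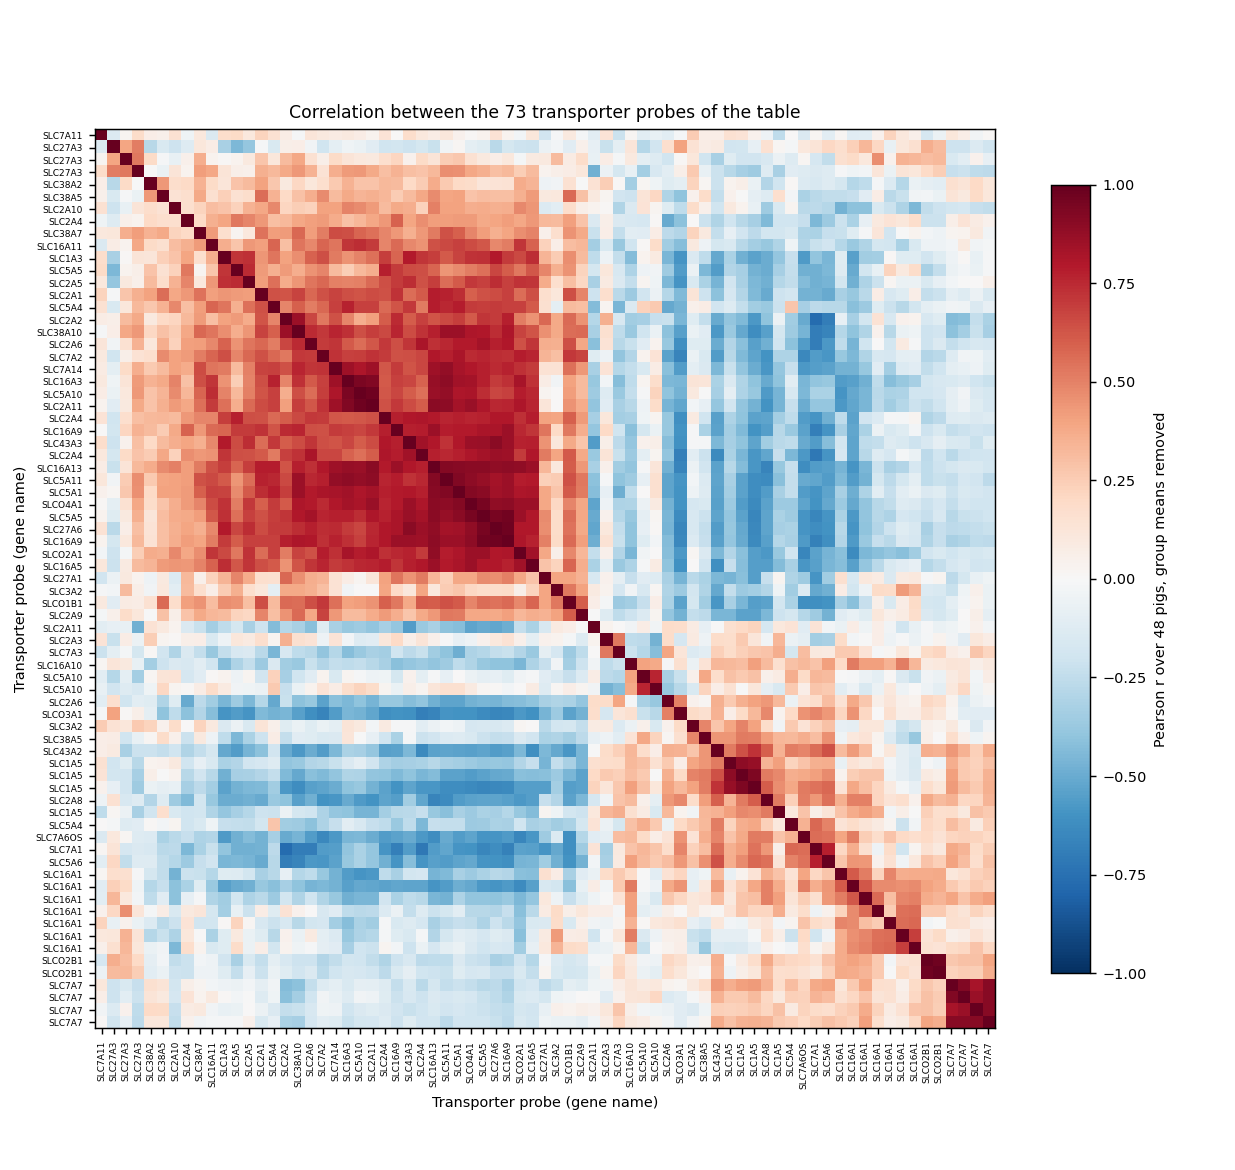
Pearson's r between the 73 transporter probes over 48 pigs, with group means removed and probes ordered by average linkage clustering. The large block in the upper left holds most of the 29 probes with 10 or more partners, and the 4 SLC7A7 and 2 SLCO2B1 probes form small blocks of their own at the lower right.

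The spread between pigs differed widely among the members. The SD within groups had a median of 0.31 over transporter probes and 0.26 over all probes, and exceeded 0.5 for 12 of 73 (16.4%) against 10.4% of all. Probes of the same gene had an r above 0.5 in 26 of 50 pairs (52%). The 4 SLC1A5 probes had r of 0.41 to 0.94, and the 7 SLC16A1 probes 0.22 to 0.69. Other genes had probes that disagreed: the 2 SLC2A11 probes had r = -0.40 and the 2 SLC2A6 probes r = -0.38.

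SLC5A10, a mannose and fructose carrier, is shown because it was measured with the same sequence in duplicate and with a different one. A pair of its probes, A_72_P177876 and O7410, carry the same 60 bases, and the third does not.
SLC5A10 A_72_P177876 and O7410: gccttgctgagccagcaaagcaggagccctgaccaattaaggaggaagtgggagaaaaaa
SLC5A10 A_72_P435369: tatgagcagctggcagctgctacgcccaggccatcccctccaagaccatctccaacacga

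Spots of the shared sequence followed each other with r = 0.76 within groups and differed by a median of 0.14 on the log2 scale. The third probe had r of -0.01 and 0.23 with them and an SD within groups of 0.95, the highest of the 73. It followed the SLC2A11 probe A_72_P742356 with r = 0.97. Spots of a shared SLC2A4 sequence followed each other with r = 0.81 and differed by a median of 0.37. In the SLC2A4 pair, A_72_P448551 was well above background on 37 of 48 arrays.

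The 58 spots outside the table are described here only by whether the scanner software called them well above background. Their intensities entered 1 alternative, a fit over all non-control spots, and no level is given for them. There were 11 such on no array, 41 on some arrays and 6 on all 48 (10.3%, against 10.5% of all 23193 spots outside the table). The 6 were spots of SLC16A1, SLC16A6, SLC27A3, SLC38A1, SLC3A2 and SLC5A9, of which SLC16A6, SLC38A1, a glutamine carrier, and SLC5A9 had no spot in the table. SLC1A4, a carrier of alanine, serine and cysteine, was seen on 45 arrays, with 11 and 10 in the low RFI LF and HF groups and 12 in each high RFI group. The spot of SLC7A8, a light chain partner of SLC3A2, was not well above background on any array. The 3 spots of SLC7A9, a light chain of kidney and gut, were seen on 3, 1 and 1 arrays. The liver carrier SLC27A2 was seen on 1 array with each of its spots, and SLC27A5 on 1. The fatty acid carrier SLC27A1 had 2 such spots, on 30 and 6 arrays, besides the probe in the table. Of the 73 spots in the table, 64 were well above background on all 48 arrays, and the lowest count was 34, for SLC38A7. Every one of the 73 was well above background on at least 7 of 12 arrays in each group.

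**Figure D5:**
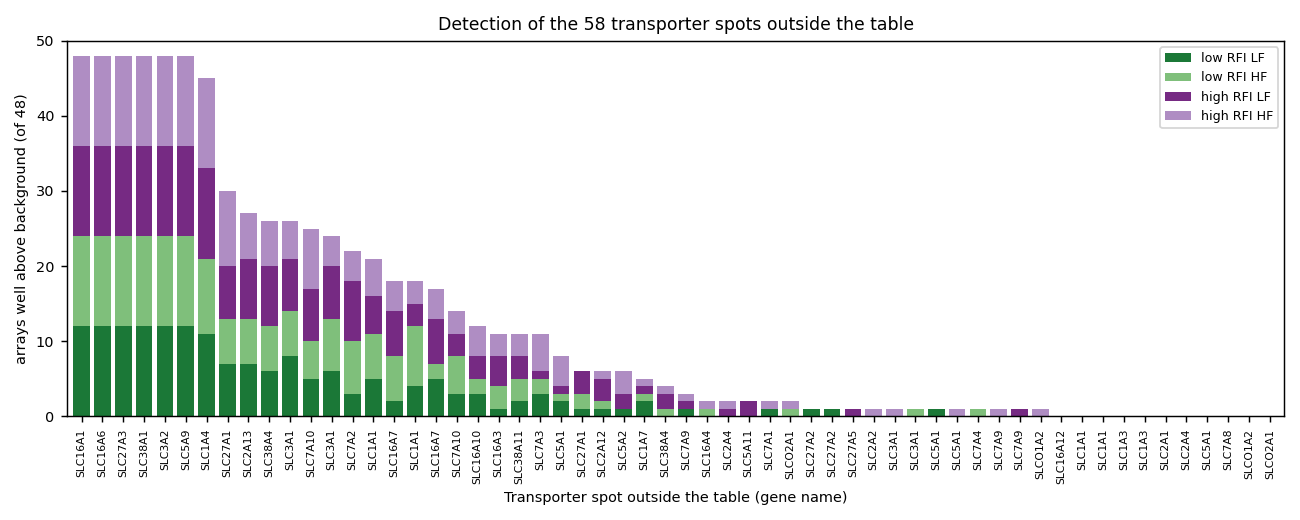
Number of arrays, of 48, on which each of the 58 transporter spots outside the table was well above background, stacked by group of 12 pigs. The 6 spots at the left reach 48, and 11 at the right are at 0.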

How the data were processed

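Whole blood RNA of 48 pigs was hybridised to 1-colour Cy3 custom Agilent arrays and read with Feature Extraction 10.7.3.1. In the deposited table the authors gave log2 median intensities centred on each array's median for 37113 spots, after filters on background, diameter, saturation and uniformity (R 3.0.2 per the labels). From the deposited scanner files, intensity columns rebuilt 47 of 48 table columns within 1e-06. The column of high RFI HF replicate 1 repeated 1 value and was rebuilt from its scanner file.

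Probes with the same gene name were averaged. Line, diet and interaction were fitted over all 48 pigs with limma 3.58.1 (R 4.3.3), with Benjamini-Hochberg adjustment over all probes or genes. The limma P-values test each term against the variation between pigs within groups, without slide in the main fit. They do not cover variation between separately selected lines. On simulated line differences over 37113 probes, 85% of changes of 0.5 and 100% of changes of 1 (log2) were recovered. The simulated noise was independent between probes and held no slide effect, unlike the data. Smaller changes, as most of those reported here, and diet or interaction effects were not simulated, so their recovery is unknown. Intervals used 44 residual degrees of freedom, correlations 100000 permutations, two-sided. Arrays have no read depth, and their number limits the precision.

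Named genes were those past an adjusted P of 0.05, those past the criterion of the methods, the 5 lowest P for diet and interaction, partner proteins, and a set of main carriers. Other members were named after their values were seen, for probe agreement, detection, or as examples of their family's line differences. Members and lists were chosen with earlier results of these data known. Same-numbered pigs correlated above 0.1 in every pair for 2 of 12 numbers, with mean correlations from -0.09 to 0.52. No comparison was made with differently numbered pigs of the slide, so the check cannot decide whether numbers pair pigs. Each number lay on 1 slide and scan day in all groups, 2 numbers per slide, so the number also marks the slide. SLC7A5, SLC7A6, SLC16A8, SLC27A4 and EMB were not analysed here. A single marker gene is not reported here. Alternatives covered background correction, scaling, spot filters, blocks, the prior, the repeated column, and the summary of probes.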

Additional observations from a re-analysis of the deposited data

Results flagged for a closer look

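Signal was present in 6 transporter spots that the normalized table leaves out, so the reported line, diet and interaction results do not use them (an alternative over all non-control spots did). The scanner software called SLC16A1 A_72_P294944, SLC16A6 O1541, SLC27A3 A_72_P474942, SLC38A1 O1372, SLC3A2 O8118 and SLC5A9 A_72_P536094 well above background on all 48 arrays, 12 of 12 in every group. For SLC16A6, SLC38A1 and SLC5A9 these are spots of genes without any value in the table. The SLC27A3 spot has the same 60-base sequence as A_72_P250527, which the table does hold. Groups of 12 pigs were not tested for single pigs far from the others.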

How the results depend on the processing

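The count of transporters called between lines, 3 genes and 5 probes, was 3 genes and 4 to 6 probes in every alternative other than the repeated column and, for genes, the brightest probe. With the repeated column of high RFI HF replicate 1 used as deposited, which moved the median line difference of all genes from 0.03 to -0.08, it was 0 genes and 2 probes (0.685% of all genes and 0.714% of all probes were called), and the criterion of the methods gave 2 genes and 4 probes (2.76% and 2.71% of all). The adjusted P was then 0.057 for SLCO2B1, 0.067 for SLC5A4 and 0.83 for SLC7A7, and the line differences of SLC3A2 (-0.077), SLC38A2 (-0.14), SLC16A1 (-0.15) and SLC27A1 (-0.14) and the diet difference of SLC16A1 (0.12) changed sign. Without that pig, 3 genes and 5 probes were called. With the brightest probe of each gene 1 gene was called, SLCO2B1 at 1.03, with SLC7A7 at an adjusted P of 0.055. SLC16A3 turned to 0.016 with normexp and quantile normalization, to 0.015 with all non-control spots, and to 0.013 without that pig. SLC27A1 turned to -0.014 and -0.025 with background-corrected signal centred on the median and the 75th percentile, and to -0.036 with all non-control spots. The interaction estimates of the transporter genes, 33 of 47 below zero with a median of -0.081, had a median of -0.056 without high RFI HF replicate 1 (30 below) and -0.36 with its column as deposited (43 below, all genes -0.20). The gene interaction of SLC5A4 ran from 0.096 to 0.41. With slide as a block, 1 probe, A_72_P077731 of SLC5A4, met the criterion of the methods for the interaction (adjusted P = 0.84), as did 0.377% of all probes. The SLC7A7 probe A_72_P585991 was past the threshold in 5 of 11 alternatives (adjusted P 0.035 to 0.82). The r of SLC3A2 and SLC7A7 was -0.072 with group means removed.

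With the replicate block, which includes the slide, 551 of all genes were called for line against 360, and among transporters 3 genes and 5 probes were called for line and 0 for diet and interaction, SLCO2B1 with an adjusted P of 0.0035, SLC7A7 0.031 and SLC5A4 0.0037. The mean correlation of same-numbered pigs ran from -0.09 to 0.52 over the 12 numbers. Signal near background limits genes such as SLC38A7 and SLC2A5, each read by 1 probe in the table, on 34 and 43 of 48 arrays.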
